A study of Mus musculus with 7 samples.

Results

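The genes described here are 10 receptors and secreted partners that phagocytes use to find, bind and take up dying cells and altered lipids: Mertk, Axl, Gas6, Timd4, Stab1, Mrc1, Marco, Msr1, Cd36 and Cd5l. They were taken by name from a table of 54532 genes, and all 10 were found once. The data are bulk RNA-seq of cells that were sorted for GFP from the spleens of mice carrying the reporter IL-17GFP/+, in which GFP marks the IL-17 locus. Both groups carry this reporter, and the labels call the sorted cells Th17 cells. In the periodontitis group (n = 3 libraries, numbered 2 to 4) a silk ligature had been placed on the lower first molars of both sides. The health group (n = 4 libraries, numbered 1 to 4) had none. Age, sex and time after ligature are not in the labels. Neither is the number of mice behind a library, so the p-values below speak only of library-to-library spread, which may be technical. Sorting by GFP takes any cell that passes the gate, whether or not it is a T cell.

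Dying cells expose phosphatidylserine on their surface. Phagocytes bind it directly, as Timd4 (also called TIM-4) does, or through a secreted bridge such as Gas6, which links it to the receptor tyrosine kinases Axl and Mertk. This uptake is called efferocytosis. Scavenger receptors are a looser group that bind modified lipoproteins, sugars, microbial products and cell debris. Macrophages of the spleen carry many of them: those of the red pulp clear aged red blood cells, and those of the marginal zone, where Marco is a known marker, take up particles from the blood.

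Levels are in FPKM, which divides fragments by gene length and by the library total, so they can be compared between genes. The reads recovered from these values totalled 13513806 to 16717942 in the periodontitis libraries and 14161438 to 17891393 in the health libraries. Periodontitis 4 held reads in 12226 genes, against 15322 and 17546 in periodontitis 2 and 3 and 16852 to 19721 in health. Of 11584 genes with at least 30 reads in each of periodontitis 2 and 3, periodontitis 4 was listed at 0 in 9.29%; the same share was 0.968% for periodontitis 2 and 0.142% for periodontitis 3. The female-specific RNA Xist was 0.135 to 1.35 FPKM in periodontitis and 52.1 to 72.5 FPKM in health, and Ddx3y, on the Y chromosome, was 9.22 to 16.9 FPKM in periodontitis and listed at 0 in every health library. In all comparisons here, sex cannot be told apart from periodontitis.

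The labelled cell type was checked against its markers. The 6 T cell markers Cd3e, Cd3d, Cd3g, Trac, Cd4 and Lck rose in periodontitis, and summed to 808.9 to 1847 FPKM there, against 129.8 to 278.3 FPKM in health. The 10 red pulp macrophage markers fell, and summed to 180.5 to 302.2 FPKM in periodontitis, against 2695 to 6970 FPKM in health. Macrophage genes were thus abundant in cells labelled as T helper cells, at a higher level in health. In bulk RNA, fewer cells of a type and less RNA per cell cannot be told apart, and the part of these markers in each result below was not tested.

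As a group, the 10 genes were much lower in periodontitis. Their summed level was 86.2, 65.7 and 82.9 FPKM in periodontitis 2, 3 and 4, against 2658, 1043, 1071 and 944.5 FPKM in health 1 to 4. The groups did not overlap, and health 1 stood above the other health libraries. Of the 10 genes, 9 averaged 1 FPKM or more across the 7 libraries and were tested, and Stab1 did not. Timd4 and Msr1 reached this mean only through their level in health, so the counts that follow are a description. In limma on log2(FPKM + 1), 8 of the 9 fell, at an adjusted p under 0.05 over all genes tested, and none was higher, also at an unadjusted p under 0.05. Over all 12999 genes tested, 1321 or 10.2% were lower and 732 or 5.63% higher in periodontitis. These totals moved with single libraries: 871 genes were lower without health 2, and 484, 445 and 482 were higher without health 1, 2 or 3. Of all calls 35.7% were higher, and 13.3% with libraries rescaled to the same FPKM total. The share was 59.6% with features under 200 bases left out and each library scaled back up to its own FPKM total. The 8 members were lower under both of these settings. Every periodontitis library lay below every health library for the 9 tested genes, as it did for 17.2% of all genes tested. The median log2 fold change of the 9 was -3.69, beside -0.06 for all genes tested.

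**Figure D1:**
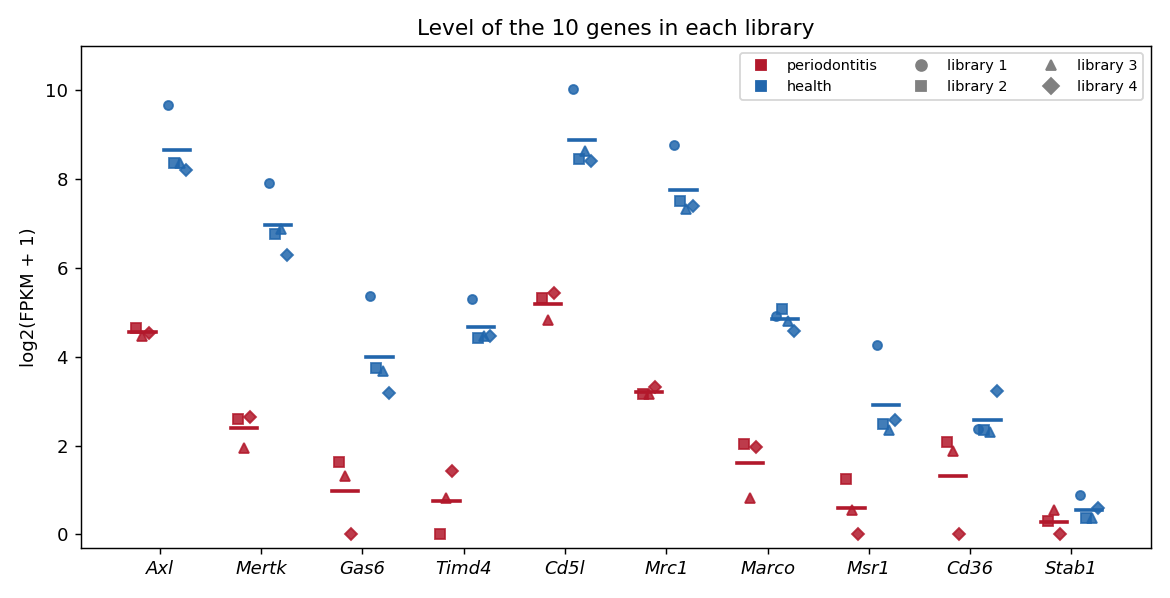
Level of the 10 genes in each library, as log2(FPKM + 1) on the vertical axis, with the 3 periodontitis libraries in red and the 4 health libraries in blue; horizontal bars are group means and the marker shape gives the library number. The periodontitis libraries lie below the health libraries for every gene except Stab1, whose highest periodontitis value, 0.451 FPKM, lies among the health values of 0.288 to 0.843 FPKM.

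Axl and Mertk, receptor tyrosine kinases that signal uptake of dying cells, were among the most abundant of the 10 genes in health and fell steeply. Axl (ENSMUSG00000002602, chr7:25757273-25788705, minus strand, mm10) was 24.1, 21.0 and 22.1 FPKM in periodontitis 2, 3 and 4, against 807.7, 329.5, 330.1 and 294.7 FPKM in health 1 to 4. The periodontitis libraries were nearly level with each other, while health 1 was far above the rest. Axl had a log2 fold change of -4.11 (SE 0.36, 95% interval -4.93 to -3.28; limma adjusted p = 0.000560). Mertk (ENSMUSG00000014361, chr2:128698956-128802894, plus strand) was 5.08, 2.83 and 5.22 FPKM in periodontitis 2, 3 and 4, against 240.2, 108.4, 116.9 and 77.6 FPKM in health 1 to 4. Its log2 fold change was -4.57 (SE 0.38; limma adjusted p = 0.000543), and its mean was 31.0-fold lower. Gm14011, an antisense gene within its span, was listed at 0 in every periodontitis library and in health 2 and 3.

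Gas6, the secreted protein that bridges phosphatidylserine to Axl and Mertk, fell too, and was less abundant than its receptors in every library. It lies on the minus strand (ENSMUSG00000031451, chr8:13465374-13494490) and was 2.11, 1.47 and 0 FPKM in periodontitis 2, 3 and 4, against 40.3, 12.5, 11.8 and 8.02 FPKM in health 1 to 4. Gas6, Msr1, Cd36 and Stab1 were all listed at 0 in periodontitis 4, the library with many well-covered genes at 0, and whether such a 0 reflects the gene's level was not tested. The log2 fold change was -3.01 (SE 0.57; limma adjusted p = 0.00886), and the call was lost with a pseudocount of 0.01 (adjusted p = 0.0837) and with voom on recovered reads (adjusted p = 0.0687). Without periodontitis 4 it was kept (limma adjusted p = 0.0228). Tmem255b, whose annotated span overlaps that of Gas6 on the other strand, was listed at 0 in all 7 libraries.

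Timd4, a receptor that binds phosphatidylserine directly and is known from long-lived tissue macrophages, also fell. Timd4 (ENSMUSG00000055546, chr11:46810800-46844332, plus strand) was 0, 0.766 and 1.69 FPKM in periodontitis 2, 3 and 4, against 38.2, 20.6, 21.1 and 21.0 FPKM in health 1 to 4. These periodontitis values stand on 0, 28 and 52 reads. The health libraries other than health 1 were nearly equal. Timd4 had a log2 fold change of -3.91 (SE 0.37; limma adjusted p = 0.000674).

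Cd5l and Mrc1, the other abundant genes of the group, fell as well. Cd5l encodes a secreted protein of macrophages, also called AIM, with scavenger receptor cysteine-rich domains. It lies on chr3:87357881-87371073 (ENSMUSG00000015854, plus strand) and was 39.1, 27.3 and 42.1 FPKM in periodontitis 2, 3 and 4, against 1041, 349.3, 396.6 and 339.8 FPKM in health 1 to 4. It had the highest level of the 10 genes in every library, and its log2 fold change was -3.69 (SE 0.42; limma adjusted p = 0.00110). Mrc1 encodes the mannose receptor CD206, which binds sugars on glycoproteins and microbes. Mrc1 (ENSMUSG00000026712, chr2:14229392-14332057, plus strand) was 7.88, 7.98 and 8.95 FPKM in periodontitis 2, 3 and 4, against 438.2, 181.3, 158.8 and 166.8 FPKM in health 1 to 4. Its periodontitis libraries differed by little, and its log2 fold change was -4.54 (SE 0.36; limma adjusted p = 0.000519).

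Marco and Msr1, class A scavenger receptors with a collagen-like stalk, both fell, and their spread in health differed. Marco (ENSMUSG00000026390, chr1:120474538-120505024, minus strand) was 3.11, 0.773 and 2.93 FPKM in periodontitis 2, 3 and 4, against 29.4, 32.6, 27.1 and 22.7 FPKM in health 1 to 4. Its health libraries were the most even of the 10 genes, with an SD of 14.8% of the mean, against 34.4% to 85.9% for the other 9. Marco had a log2 fold change of -3.23 (SE 0.32; limma adjusted p = 0.000727). Msr1 (ENSMUSG00000025044, chr8:39581685-39642673, minus strand) was 1.39, 0.469 and 0 FPKM in periodontitis 2, 3 and 4, against 18.3, 4.62, 4.08 and 4.97 FPKM in health 1 to 4. Health 1 was 4.01 times the mean of the other health libraries. The log2 fold change of Msr1 was -2.32 (SE 0.52; limma adjusted p = 0.0185), and the call was lost with voom (adjusted p = 0.0728), with a pseudocount of 0.01 (adjusted p = 0.0795) and with no filter on low values (adjusted p = 0.0575). Without periodontitis 4 the limma adjusted p was 0.0486.

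Cd36 and Stab1 had the lowest means of the 10 genes over all 7 libraries, 3.79 and 0.373 FPKM, and neither was called. In periodontitis 2 and 3 alone, Cd36 was above Gas6, Timd4, Marco and Msr1. Cd36, a class B scavenger receptor for oxidized lipids and fatty acids that platelets also carry, lies on chr5:17781690-17888801 (ENSMUSG00000002944, minus strand). It was 3.21, 2.65 and 0 FPKM in periodontitis 2, 3 and 4, against 4.16, 4.12, 3.97 and 8.43 FPKM in health 1 to 4. Here health 4 was the high library, not health 1. The log2 fold change of Cd36 was -1.26 (SE 0.51, 95% interval -2.43 to -0.08; limma adjusted p = 0.141). Without periodontitis 4, where it was listed at 0, the value was -0.60, and with libraries rescaled to the same FPKM total the adjusted p was 0.0451. The summed level of 5 platelet and megakaryocyte markers was 44.3, 10.2 and 39.7 FPKM in periodontitis 2, 3 and 4, against 17.0, 45.1, 38.3 and 62.5 FPKM in health 1 to 4, with Gp1bb at 0 in all libraries. Their part in the level of Cd36 was not tested.

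Stab1 encodes stabilin-1, a large multidomain receptor of macrophages and of sinusoidal endothelium that takes up dying cells and modified lipoproteins. Stab1 (ENSMUSG00000042286, chr14:31139013-31168641, minus strand) was 0.236, 0.451 and 0 FPKM in periodontitis 2, 3 and 4, against 0.843, 0.289, 0.288 and 0.503 FPKM in health 1 to 4. These levels stand on 114 reads in periodontitis and 317 reads in health, and the groups overlapped. With no filter on low values its log2 fold change was -0.27 (limma adjusted p = 0.493). The related receptor Stab2, known from sinusoidal endothelium, was far higher in both groups, at 2.04 ± 0.671 FPKM in periodontitis and 22.6 ± 8.78 FPKM in health (SD, n = 3 and 4), and fell by 2.91 on the log2 scale (limma adjusted p = 0.000913). Of the other 5 endothelial markers, Emcn was listed at 0 in every library, and Cdh5, Kdr and Tek stayed at or below 0.821 FPKM in all 7. Pecam1, which platelets and leukocytes also carry, was 18.9, 23.8 and 18.4 FPKM in periodontitis 2, 3 and 4, against 58.3, 27.9, 29.7 and 31.8 FPKM in health 1 to 4, and did not pass (log2 fold change -0.77, limma adjusted p = 0.104). Its groups did not overlap, and the part of endothelial cells in these levels was not tested. The 3′ end of Stab1 overlaps Nt5dc2 on the other strand, and strand use is not stated.

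The 4 most abundant genes and Marco, whose health libraries were the most even, are shown here by 300 bases each. These are 250 bases before the start of the gene in RefSeq and 50 after, 5′ to 3′ on the gene's strand. For Axl, Mrc1 and Mertk that start differs from the one in the coordinates given above. Sequences are from RefSeq on GRCm38.p6, which is the mm10 build, and 9 of the 10 genes had an entry. Capitals mark matches, on either strand, to GAGGAAG, a core bound by the myeloid factor PU.1, and to TGCTGA, a part of MAF recognition elements; in these promoters no match overlapped another. The stretches are chr3:87357631-87357930 (plus) for Cd5l, chr7:25788684-25788983 (minus) for Axl, chr2:14229164-14229463 (plus) for Mrc1, chr2:128698665-128698964 (plus) for Mertk and chr1:120504975-120505274 (minus) for Marco.
Cd5l: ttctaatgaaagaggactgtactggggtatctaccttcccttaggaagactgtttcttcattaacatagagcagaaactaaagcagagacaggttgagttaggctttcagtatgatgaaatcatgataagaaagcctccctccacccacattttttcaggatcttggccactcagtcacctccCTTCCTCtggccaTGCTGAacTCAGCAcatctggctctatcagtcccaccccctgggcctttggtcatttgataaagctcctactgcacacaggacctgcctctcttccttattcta
Axl: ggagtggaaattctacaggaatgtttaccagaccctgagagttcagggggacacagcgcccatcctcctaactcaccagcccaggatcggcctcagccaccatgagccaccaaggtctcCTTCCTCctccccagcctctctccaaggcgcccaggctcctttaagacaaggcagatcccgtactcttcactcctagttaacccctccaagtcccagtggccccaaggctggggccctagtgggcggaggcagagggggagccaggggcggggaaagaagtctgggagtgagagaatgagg
Mrc1: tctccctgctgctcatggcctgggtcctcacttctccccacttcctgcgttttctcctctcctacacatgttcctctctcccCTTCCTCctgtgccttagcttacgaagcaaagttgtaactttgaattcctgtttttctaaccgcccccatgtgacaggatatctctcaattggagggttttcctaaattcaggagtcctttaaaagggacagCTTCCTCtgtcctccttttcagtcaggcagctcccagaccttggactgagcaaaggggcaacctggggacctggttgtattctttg
Mertk: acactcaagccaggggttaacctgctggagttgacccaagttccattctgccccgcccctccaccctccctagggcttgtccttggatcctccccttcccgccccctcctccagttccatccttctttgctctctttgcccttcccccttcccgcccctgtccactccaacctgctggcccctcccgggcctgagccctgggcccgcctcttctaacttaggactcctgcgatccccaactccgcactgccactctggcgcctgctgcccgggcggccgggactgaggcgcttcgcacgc
Marco: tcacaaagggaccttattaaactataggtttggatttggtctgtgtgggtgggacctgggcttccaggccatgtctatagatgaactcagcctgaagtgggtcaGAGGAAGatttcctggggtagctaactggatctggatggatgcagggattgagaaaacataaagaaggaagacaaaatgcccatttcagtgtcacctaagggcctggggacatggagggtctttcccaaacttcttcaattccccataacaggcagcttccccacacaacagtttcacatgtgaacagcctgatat

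GAGGAAG was found in 4 of the 9 promoters, those of Axl, Cd5l, Marco and Mrc1, and in 13.6% of all 32851 promoters of the same length. TGCTGA was found in 4 of the 9, those of Cd36, Cd5l, Stab1 and Timd4, and in 19.5% of all promoters. In Cd5l a match to GAGGAAG on the minus strand began at base 184 of the stretch, and matches to TGCTGA began at bases 197 and 205. AGGTCA, the core hexamer bound by nuclear receptors, was found in those of Cd36 and Timd4 and in 16.3% of all promoters, and TGANTCA, bound by AP-1, in none of the 9 and in 7.81% of all promoters. Both strands were searched for each. The promoters of Mertk and Gas6, which fell, held none of these motifs, and those of Cd36 and Stab1, which were not called, held some. The stretch used for Cd36, chr5:17835847-17836146, lies inside the gene's annotated span, whose 5′ end is at 17888801, so it is not at that end. A match is a stretch of letters and not evidence of binding.

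The health libraries were not alike, and most of the 10 genes shared the difference. Health 1 held the highest level of 8 of the 10 genes, at 1.83 times the mean of health 2 to 4 for Timd4, 2.38 for Mertk, 2.54 for Axl, 2.59 for Mrc1, 2.88 for Cd5l, 3.74 for Gas6 and 4.01 for Msr1. It was also the highest health library for the 6 general macrophage genes Adgre1, Csf1r, Fcgr1, C1qa, C1qb and C1qc, at 2.11 to 2.69 times the mean of the others. Marco and Cd36 stood apart from this, at 1.07 and 0.756. The 4 health libraries therefore ranked differently by Marco than by Mertk or Axl. The part of macrophage content in these differences was not tested.

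**Figure D2:**
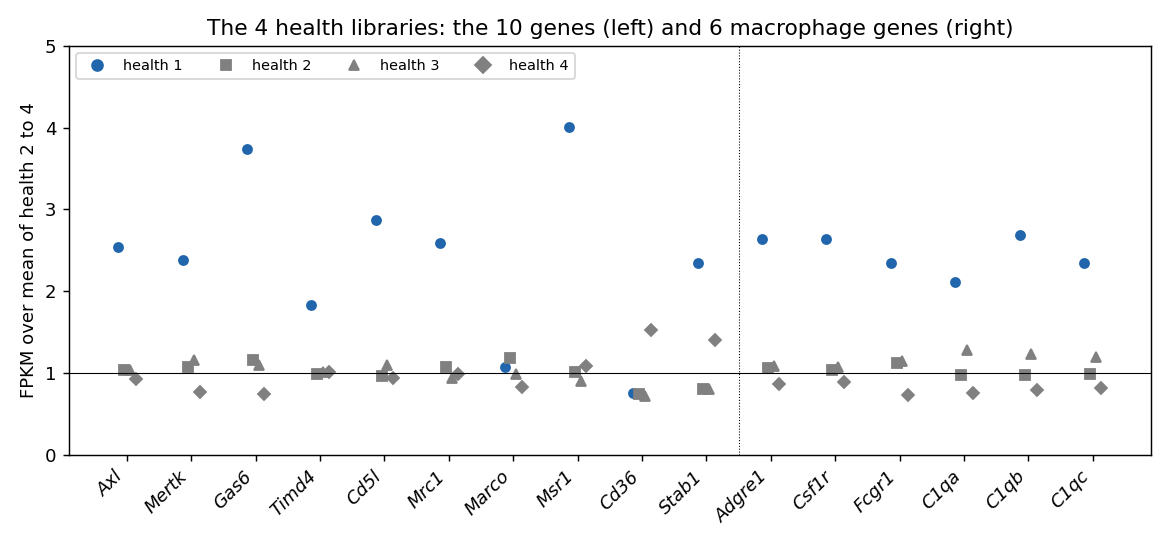
FPKM of each gene in health 1 to 4, divided by the mean of health 2 to 4, for the 10 genes on the left and 6 general macrophage genes on the right. Health 1, in blue, lies at 1.83 or above for every gene except Marco, at 1.07, and Cd36, at 0.756.

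The 10 genes were next set against a macrophage reference of 7 genes in the same library, the 6 above among them, which all fell as well. Adgre1, which encodes F4/80, was 12.3 ± 1.03 FPKM in periodontitis and 224.8 ± 131.4 FPKM in health, and Csf1r, the receptor for the macrophage growth factor M-CSF, was 40.8 ± 6.81 FPKM in periodontitis and 608.4 ± 354.8 FPKM in health (SD, n = 3 and 4). The log2 fold changes of the 6 ran from -3.94 for Adgre1 to -3.20 for C1qa. The mean log2(FPKM + 1) of the 7 was 4.69 to 5.51 in periodontitis and 8.12 to 9.67 in health. When this mean was subtracted in each library, none of the 9 tested members was lower by limma at an adjusted p under 0.05. None was lower at an unadjusted p under 0.05 either. Of all genes tested, 0.0385% were lower at an adjusted p under 0.05. On this scale limma draws each gene's variance toward that of all genes tested, which had the same mean subtracted. The SE of the members was 0.53 to 0.65, also for genes with close libraries, so a count of 0 lower says little of them. Cd36 and Msr1 were higher on this scale, but so were 97.6% of all genes, so that count says nothing of the members.

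Relative to the macrophage genes, Mertk and Mrc1 had the most negative differences and Cd5l the one nearest to 0, none of them called. Cd5l differed by -0.07 on the log2 scale between periodontitis and health (95% interval -1.12 to 0.99; limma adjusted p = 0.904), and Axl by -0.48 (95% interval -1.53 to 0.56; limma adjusted p = 0.367). Mertk stood at -2.91, -2.75 and -2.47 in periodontitis 2, 3 and 4, against -1.76, -1.69, -1.76 and -1.82 in health 1 to 4, on this relative log2 scale. Its groups did not overlap and its health libraries were nearly equal, health 1 included. The share of all genes that did not overlap on this scale was not counted. The difference of Mertk was -0.95 (95% interval -1.99 to 0.09, limma adjusted p = 0.0746). Its SE was 0.53, though its SD was 0.22 in periodontitis and 0.06 in health. The interval and p thus rest mostly on the variance shared over all genes tested, not on the spread of Mertk. An exact two-sided permutation test, with the smaller tail doubled, gave p = 0.0571, or 0.171 adjusted over the 9 members. In that form the test can give no smaller p with 4 against 3 libraries. Mrc1 was like it, at -2.36, -1.52 and -1.79 in periodontitis 2, 3 and 4, against -0.89, -0.95, -1.32 and -0.73 in health 1 to 4. The difference of Mrc1 was -0.92 (95% interval -1.95 to 0.12, limma adjusted p = 0.0839, exact permutation p = 0.0571). Its SE was also 0.53, beside an SD of 0.43 in periodontitis and 0.25 in health. Without health 1, both Mertk and Mrc1 were lower on this scale (limma adjusted p = 0.0140 and 0.0254), and with Cd68 alone as the reference so was Axl (adjusted p = 0.0343).

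The relative values of the low members depended on the pseudocount. With 1 FPKM added, Gas6, Marco, Msr1 and Cd36 differed by 0.61, 0.39, 1.31 and 2.37 between periodontitis and health, and with 0.1 FPKM added by -0.70, -0.06, -0.19 and 1.34. The sign thus turned for Gas6, Marco and Msr1. Cd36 was called higher with 1 FPKM added (limma adjusted p = 0.000321) and not with 0.1 FPKM added (adjusted p = 0.239). With 1 FPKM added, the groups of Msr1 did not overlap, with periodontitis higher (exact permutation p = 0.0571, or 0.171 adjusted). Msr1 was called at a limma adjusted p of 0.0471. That call was lost on leaving out health 2 (limma adjusted p = 0.113), health 3 (0.154), health 4 (0.0564), periodontitis 2 (0.104) or periodontitis 3 (0.116). Timd4 differed by -0.29 (95% interval -1.43 to 0.86; limma adjusted p = 0.623), and by 0.29 without periodontitis 2, where it was listed at 0.

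**Figure D3:**
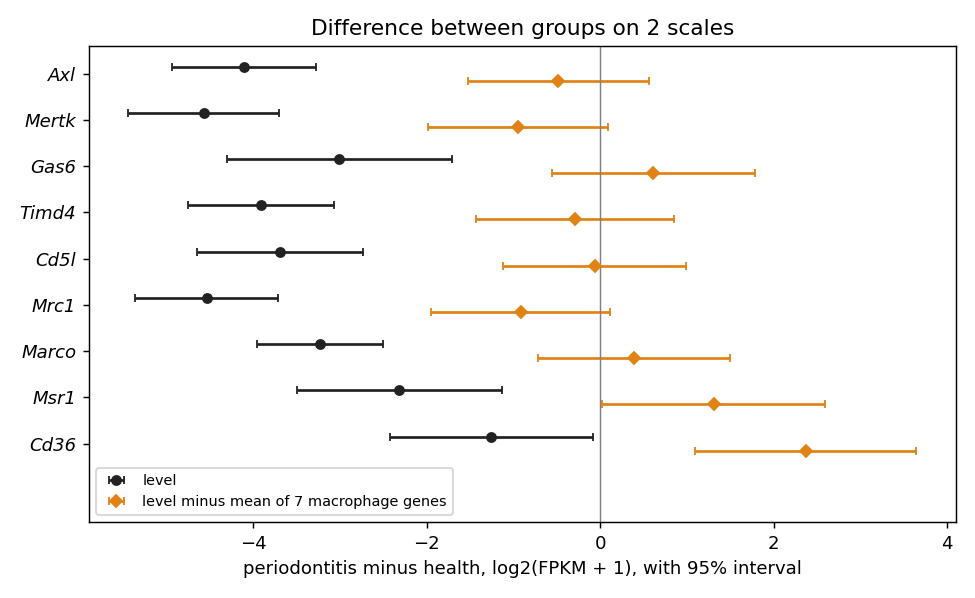
Difference between periodontitis and health for the 9 tested genes, in log2(FPKM + 1) units with 95% intervals from limma, as measured (black) and after subtracting the mean of 7 macrophage genes in each library (orange). On the first scale the values run from -4.57 to -1.26. On the second the intervals of Axl, Mertk, Gas6, Timd4, Cd5l, Mrc1 and Marco include 0. The orange intervals rest mostly on a variance shared over all genes tested.

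By share of the summed level, Cd5l came first in both groups. It made up 45.9% ± 4.61 of the summed FPKM of the 10 genes in periodontitis and 36.4% ± 2.36 in health (SD, n = 3 and 4). Mrc1 made up 9.14% to 12.1% in the periodontitis libraries and 14.8% to 17.7% in the health libraries, and Mertk 5.49% ± 1.06 in periodontitis and 9.64% ± 1.24 in health. Axl held 28.9% ± 2.81 in periodontitis and 31.0% ± 0.514 in health. These shares were not tested.

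Other genes that recognise phosphatidylserine or bridge to it fell in part. Of 17 tested genes in a list of 21, 8 fell, none rose and 9 did not pass. Over all genes tested, 10.2% were lower and 5.63% higher. The median log2 fold change of the 17 was -1.46, beside -0.06 for all genes. The 8 were the complement C1q chains C1qa, C1qb and C1qc, the lipid-binding CD300 receptors Cd300a, Cd300lb and Cd300lf, Stab2, and the integrin chain Itgb5, a partner in the receptor that binds the bridge Mfge8. Cd300a was 5.21 ± 2.17 FPKM in periodontitis and 63.8 ± 29.1 FPKM in health (SD, n = 3 and 4; log2 fold change -3.35, limma adjusted p = 0.00106), and Cd300lf was 6.05 ± 1.01 FPKM in periodontitis and 36.0 ± 5.25 FPKM in health (log2 fold change -2.39, limma adjusted p = 0.000548). Pros1, another ligand of Mertk, was 1.70, 1.51 and 0 FPKM in periodontitis 2, 3 and 4, against 7.84, 3.47, 2.44 and 4.38 FPKM in health 1 to 4. It did not pass (log2 fold change -1.46, limma adjusted p = 0.0646). Tyro3, the third receptor of the family of Axl and Mertk, was 1.92, 1.87 and 0 FPKM in periodontitis 2, 3 and 4. In health it was 0.263 to 0.458 FPKM, and its mean over all libraries was too low to be tested. Mfge8 had a positive log2 fold change of 0.81 and did not pass (limma adjusted p = 0.0833).

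Some genes that act in engulfment and in the handling of what is taken up also fell. Of 23 tested genes 9 fell, none rose and 14 did not pass, beside 10.2% lower and 5.63% higher of all genes tested. The median log2 fold change of the 23 was -0.39, beside -0.06 for all genes. Of the 9, Dock1 and Ptk2 reached a mean of 1 FPKM only through their level in health, so the count is a description. Lrp1, an endocytic receptor that takes part in uptake of dying cells, fell by 4.21 on the log2 scale, and Sirpa, the receptor for the signal Cd47 that holds back uptake, by 3.73. Abca1, which exports cholesterol, was 2.42 ± 0.427 FPKM in periodontitis and 23.6 ± 10.2 FPKM in health (SD, n = 3 and 4; log2 fold change -2.78, limma adjusted p = 0.000987). The lysosomal genes Lamp1 and Dnase2a fell by 2.02 and 2.08 on the log2 scale.

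Among other scavenger receptors, most of those called fell and Cd163l1 rose. Of 14 tested genes in a list of 22, 8 fell, 1 rose and 5 did not pass. Over all genes tested, 10.2% were lower and 5.63% higher. The median log2 fold change of the 14 was -1.84, beside -0.06 for all genes. Cd163, the receptor for haemoglobin bound to haptoglobin, was 2.37 ± 1.52 FPKM in periodontitis and 101.3 ± 71.7 FPKM in health (SD, n = 3 and 4; log2 fold change -4.79, limma adjusted p = 0.000875). Cd14, which binds bacterial lipopolysaccharide, fell by 3.01 on the log2 scale. Cd163l1, of the Cd163 family and known from gamma-delta T cells, was 210.4 ± 71.2 FPKM in periodontitis and 6.21 ± 2.61 FPKM in health (log2 fold change 4.90, limma adjusted p = 0.000448). Scara5 and Megf10 were listed at 0 in all libraries. The name Scart1, also used for Cd163l1, was not in the table.

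Transcription factors known to act on such genes split. Of 15 tested, 7 fell, 1 rose and 7 did not pass, beside 10.2% lower and 5.63% higher of all genes tested. The median log2 fold change of the 15 was -0.40, beside -0.06 for all genes. Among those that fell were Spic, Spi1 (which encodes PU.1), Irf8, and the nuclear receptors Nr1h3 (LXR alpha), Pparg and Rxra. Spic, needed for red pulp macrophages, was 10.2 ± 3.43 FPKM in periodontitis and 180.2 ± 94.5 FPKM in health (SD, n = 3 and 4; log2 fold change -3.93, limma adjusted p = 0.000950). Pparg was 1.81 ± 0.539 FPKM in periodontitis and 30.1 ± 12.5 FPKM in health (log2 fold change -3.40, limma adjusted p = 0.000674). Bhlhe40, a factor of macrophages and of activated T cells, rose by 2.17 on the log2 scale (limma adjusted p = 0.00194). Maf, shared by macrophages and T cells, was 70.9 ± 26.2 FPKM in periodontitis and 52.9 ± 25.9 FPKM in health and did not pass (limma adjusted p = 0.445).

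**Figure D4:**
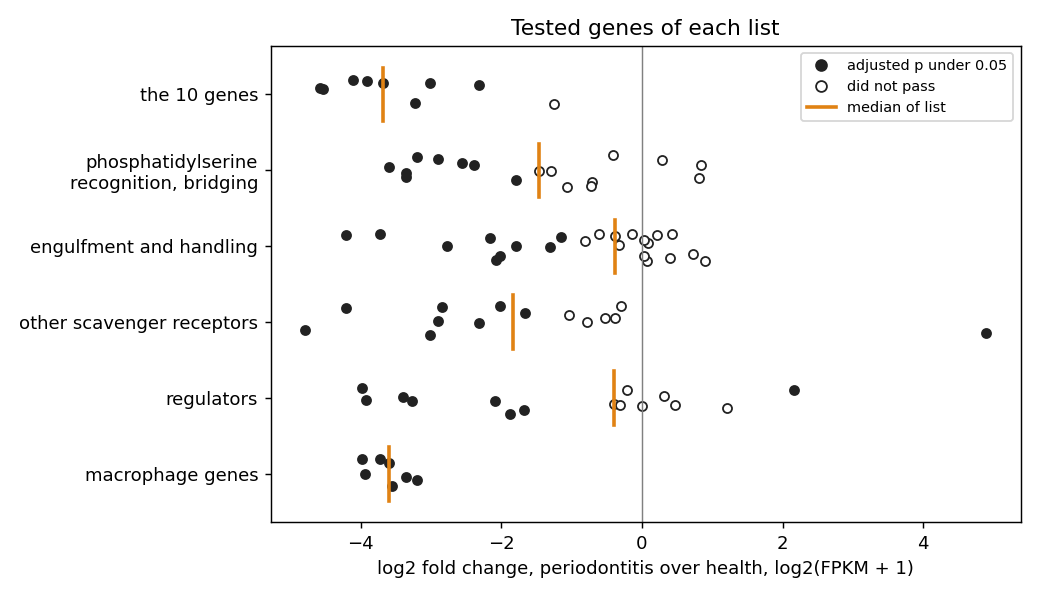
Log2 fold change, periodontitis over health, of each tested gene in the 10 genes, 4 companion lists and the 7 macrophage genes; filled points had an adjusted p under 0.05, open points did not, and orange lines are list medians, from -3.69 for the 10 genes to -0.39 for engulfment. Vertical scatter within a list carries no value, and some genes, such as Stab2, Lrp1 and the C1q genes, stand in 2 lists.

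Markers of other cells that carry members of the group were read in the same libraries. Of 3 tested genes listed as markers of marginal zone macrophages, 2 fell, with log2 fold changes of -3.81 for Siglec1 and -3.27 for Nr1h3. Nr1h3 also stands among the transcription factors above. Cd209a did not pass (log2 fold change -0.23, limma adjusted p = 0.838). Cd209b, which defines these cells with Marco, had no value above 0.677 FPKM. Of 8 tested monocyte and neutrophil markers 2 fell and 6 did not pass, with a median log2 fold change of -0.997. Their summed level was 19270, 5254 and 4908 FPKM in periodontitis 2, 3 and 4, against 12290 to 20650 FPKM in health. Of 6 tested dendritic cell markers 2 fell, of 6 B cell markers none was called, and of 6 erythroid markers 1, Epor, fell. Over all genes tested, 10.2% were lower and 5.63% higher. Of 6 stromal markers none reached the level for testing, and Pdpn and Ccl19 were listed at 0 in all libraries. The part of these cells in the levels of the 10 genes was not tested.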

How the data were processed

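RNA was measured in 7 libraries of sorted mouse spleen cells. The authors deposited 1 table of FPKM values per gene and library; their processing notes name DESeq2, featureCounts 1.5.0-p3 and HISAT2 2.0.5 without roles, and mm10 as the build. Which annotation release and strand setting were used is not given in the sources used here. Library numbers come from the sample descriptions.

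Multiplied by gene length, 100% of the nonzero FPKM values deposited were whole multiples of 1 read within 0.001 of a read, which gave reads per gene. The recovered total was 0.892 to 1.12 times the total implied by the FPKM scale. Where a name was repeated (105 entries), lookups took the entry of highest mean, and all entries were tested.

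Genes averaging 1 FPKM or more were tested on log2(FPKM + 1) with limma 3.58.1 in R 4.3.3 (empirical Bayes, variance trend, two-sided, Benjamini-Hochberg adjustment over all 12999 genes tested, threshold 0.05). This scale understates changes of low genes. The same fit was run after subtracting, in each library, the mean of 7 macrophage genes. An exact permutation test over 35 arrangements was run for each tested member on that scale, with the smaller tail doubled for a two-sided p. The fit was tested on simulated data.

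The members, lists and tests were chosen with earlier results of these data known. The text names all 10 members, 6 of the 7 macrophage genes, up to 5 genes with the smallest p in each companion list and up to 3 called in the opposite direction. Other genes, such as Pros1, Tyro3, Mfge8 and Maf, were named after their values were seen. The remaining macrophage gene, also in a companion list, is not reported here. Alternatives were other pseudocounts, filters, scalings, voom on recovered reads, library weights, a block for library number, other macrophage genes, and leaving out each library.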

Additional observations from a re-analysis of the deposited data

Results flagged for a closer look

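Of 42 sets of 4 health libraries examined, 12 held a library whose gap to the nearest other, divided by the range, was above Dixon's 95% critical value for 4 values, where chance gives about 1 in 20. In 11 of the 12 that library was health 1, and it was the highest. Among the 10 genes this was so for Axl (0.931), Gas6 (0.862), Timd4 (0.971), Mrc1 (0.919), Msr1 (0.937) and Cd5l (0.919). Of the companion genes it was so for Lrp1 (0.895), Lamp1 (0.900), Cd14 (0.903), Adgre1 (0.878) and Csf1r (0.894). For Cd36 the outlying library was health 4, at 8.43 FPKM (0.957). After subtraction of the mean of the 7 macrophage genes, no member had an outlying health library. These sets share libraries and are not independent.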

How the results depend on the processing

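Mertk, Axl, Timd4, Mrc1, Marco and Cd5l were called lower under all 17 alternatives without a block, with adjusted p-values from 4.83e-05 to 0.0330. Gas6 was called under 15 of 17 and Msr1 under 13 of 16, and Cd36 under 1 of 16. Over the alternatives that leave out 1 library, 8 members were called lower in each and none higher. Leaving out health 1 and periodontitis 4 together, chosen after seeing the data, also gave 8 lower, with log2 fold changes of -2.06 for Gas6 and -1.57 for Msr1. The log2 fold change of Timd4 was -6.68 with a pseudocount of 0.01 and -5.50 with 0.1. Each of the other called genes in the companion lists that the text names by rule kept its call under all 17.

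Over all genes tested, leaving out 1 library gave 871 to 1372 lower and 445 to 879 higher. Rescaling libraries to the same FPKM total gave 2723 lower and 417 higher and moved the median log2 fold change of all genes by -0.38. Leaving out features under 200 bases and scaling each library back up to its own FPKM total gave 1436 higher. It moved the median by 0.24. Such features held 1.40%, 36.7% and 24.2% of the FPKM in periodontitis 2, 3 and 4, against 3.31% to 9.63% in health, so the libraries were scaled up unequally. Against the macrophage genes, the number of members lower was 0 in the main comparison, 1 with a pseudocount of 0.1, 2 with 0.01, 2 with library weights, 3 against Cd68 alone, 2 without health 1 and periodontitis 4 together and 0 to 2 leaving out 1 library. The number higher was 2, and became 0 with either smaller pseudocount or a filter at 5 FPKM (which removes Cd36 and Msr1 from the test), 1 against the C1q genes, 1 against Cd68 alone, 3 without health 1 and periodontitis 4 together, and 1 to 2 leaving out 1 library. Signs turned on that scale with a pseudocount of 0.1 for Gas6 (-0.70), Marco (-0.065) and Msr1 (-0.19), with 0.01 for the same genes (-1.83, -0.13 and -1.38), against Cd68 for Gas6 (-0.17) and Marco (-0.39), without health 1 and periodontitis 4 for Marco (-0.075), with library weights for Cd5l (0.16) and against Adgre1, Csf1r and Fcgr1 for Cd5l (0.054); leaving out 1 library, Timd4 ran from -0.62 to 0.29 and Cd5l from -0.18 to 0.072. The cause of these turns was not tested.

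The numbers used here are those of the sample descriptions; the titles number the same periodontitis libraries 1 to 3, and pairs by title were not analysed. Equal numbers are not stated to pair libraries, and deviations from the group mean of equal numbers correlated at -0.0678, -0.0215 and 0.0591 over genes for numbers 2, 3 and 4; only number 4 correlated best with its own. With the number as a block, 657 genes were lower and 321 higher, 8 members were lower, and Mertk was lower against the macrophage genes (1 member; adjusted p = 0.0475). At these depths 3 reads correspond to at most 0.110 FPKM for any of the 10 genes, a limit that covers counting error only.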

Other observations

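Ratios of FPKM within a library were read for pairs chosen after the values were seen, with no test. Axl over Mertk was 4.75, 7.44 and 4.22 in periodontitis 2, 3 and 4, against 3.36, 3.04, 2.82 and 3.80 in health 1 to 4, so every periodontitis library had more Axl per Mertk than any health library. Cd5l over Axl was 1.62, 1.30 and 1.91 in periodontitis, against 1.29, 1.06, 1.20 and 1.15 in health. Gas6 over Pros1, both ligands of Mertk, was 1.25 and 0.972 in periodontitis 2 and 3, against 5.14, 3.59, 4.83 and 1.83 in health 1 to 4. Both genes were listed at 0 in periodontitis 4. Stab2 over Stab1 was 7.80 and 3.33 in periodontitis 2 and 3, against 41.8, 67.9, 71.6 and 29.6 in health 1 to 4. Marco over Mrc1 was 0.395, 0.0968 and 0.327 in periodontitis 2, 3 and 4, against 0.0670, 0.180, 0.171 and 0.136 in health 1 to 4, so it was lowest in health 1. Mrc1 over Mertk overlapped between groups, at 1.55, 2.82 and 1.71 in periodontitis and 1.82, 1.67, 1.36 and 2.15 in health.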
